A study of Bos taurus with 10 samples.

Results

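In cow liver, 24 Ensembl gene IDs were nearly or wholly without reads in some livers and clearly expressed in others. They were chosen by their counts: a raw count of 2 or less in at least 1 of 10 libraries, here called absent, and at least 10 counts per 1000000 counts of the library (CPM) in at least 2 libraries. The 24 are drawn from 27607 IDs in the table and from 5966 IDs that reached 10 CPM in at least 2 libraries. The rule leaves out 5 listed IDs, of which 2 also met both thresholds. The counts themselves chose the IDs, so how low and how high they ran is a description and not a result. The condition labels played no part in the choice.

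The donors were Holstein dairy cattle (Bos taurus) near the end of pregnancy, with liver taken 2 weeks ahead of the expected calving. Per the labels, 5 libraries were from over-conditioned cows, which carry excess body fat, and 5 from cows labelled normal. The labels give no genotype, age or further treatment for either group, and do not state that each library is a separate animal, so the p-values measure only the spread between these samples, which may be technical. Total counts ran from 3892292 to 6737548 per library. At these depths 10 CPM is 38.9 to 67.4 counts, and a count of 0 allows a level of up to 0.445 to 0.771 CPM (a floor of 3 counts, covering counting error only).

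As background, most RNA in a piece of liver comes from hepatocytes, with smaller amounts from immune, endothelial, stellate and bile duct cells. A transcript can be missing from one animal's liver and plentiful in another's because the gene is silent, because the cells that carry it are few, or because the animals differ in the gene itself, as is well known for families with many near-identical copies. In 3' sequencing an ID collects reads only where the annotated gene covers the 3' ends in use. None of these was tested here. In bulk tissue, fewer cells of a type and less RNA per cell cannot be told apart.

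The deposited counts carry no symbols. The RefSeq gene list at hand held no Ensembl IDs, so these IDs could not be looked up in it. No function, chromosome or sequence can therefore be given for these IDs, and the hepatocyte and other cell type markers could not be looked up. They are described by how they behave across the libraries.

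Absence was rare among expressed genes and mostly complete. Of the 5966 IDs at 10 CPM or more in at least 2 libraries, 26, or 0.436%, fell to 2 counts or fewer somewhere. Among these 26 the lowest count was 0 for 17 IDs, 1 for 8 and 2 for 1. Above the threshold the numbers stayed small before rising again: the lowest count was 3 for 1 ID, 4 for 2, 5 for 0 and 10 for 9.

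**Figure D1:**
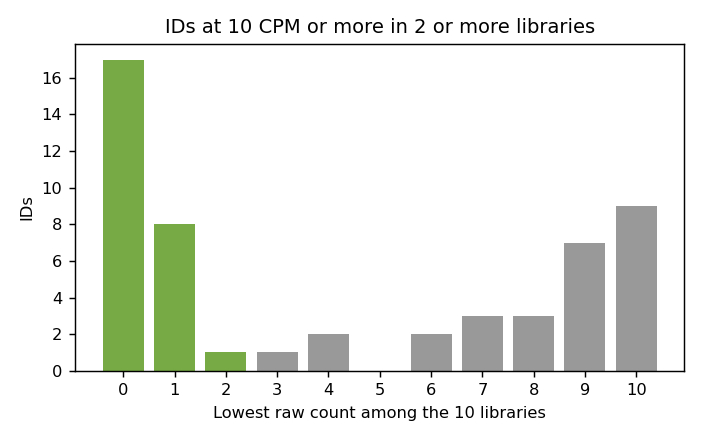
Number of IDs (vertical axis) by the lowest raw count they had in any of the 10 libraries (horizontal axis), among IDs at 10 CPM or more in at least 2 libraries. Green bars are lowest counts that the rule accepts, grey bars are above it. The bar at 0 holds 17 IDs, and the bars from 2 to 5 hold at most 2 each.

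Members at the edge of the rule were close to IDs outside it. ENSBTAG00000031792 and ENSBTAG00000021050 entered with second-highest levels of 10.1 and 10.6 CPM. ENSBTAG00000011207 and ENSBTAG00000018563 stayed out with 9.99 and 9.80 CPM. On the side of the low counts, ENSBTAG00000037605 stayed out because its lowest count was 3.

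The 24 members held 240 values, 1 for each ID and library. Of these values 59 were absent, 93 were at 10 CPM or more, and 88 lay between. Among the absent values 47 were exact zeros and 12 were counts of 1 or 2. The members divided accordingly: 15 had at least 1 zero and no absent value other than zero, and 9 never reached zero and were absent at 1 or 2 counts. In 13 of the 15 the next count above zero was 10 or more.

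**Figure D2:**
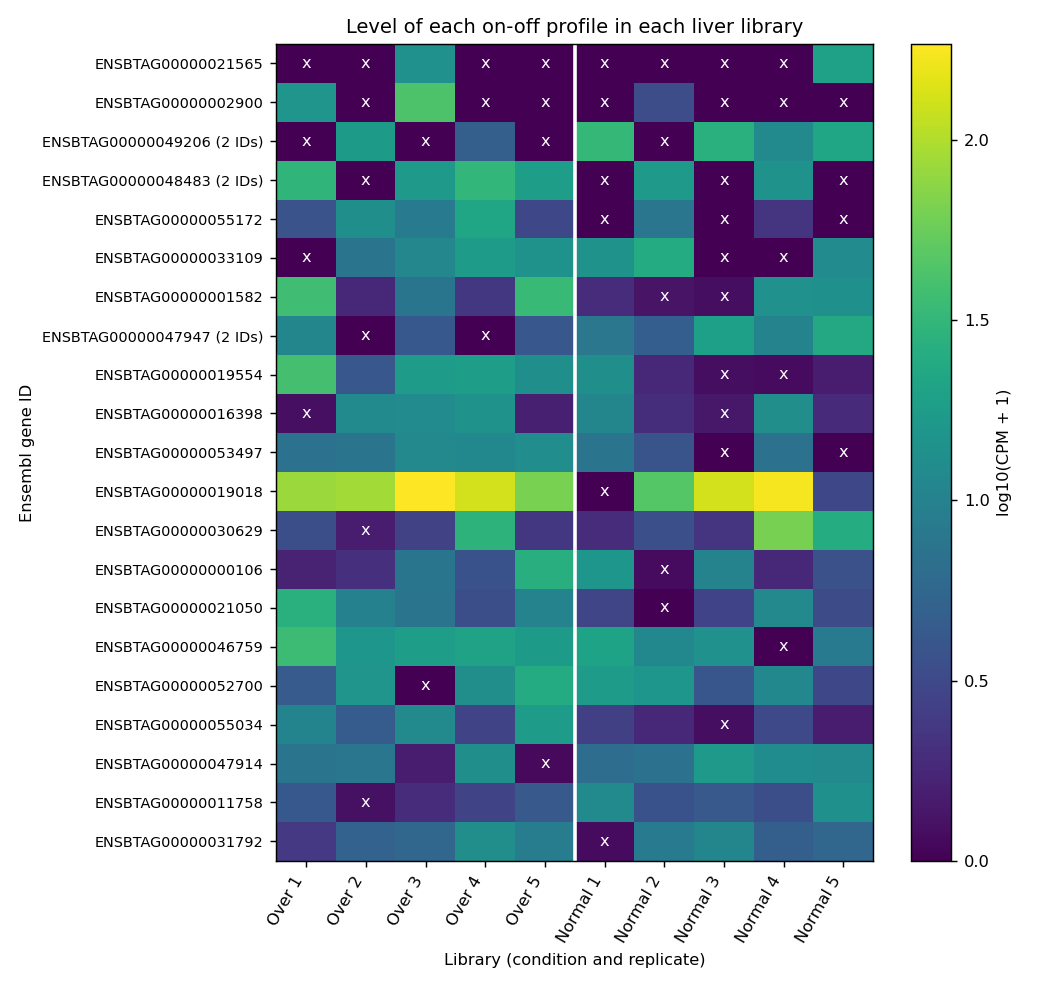
Level of the 21 distinct count profiles (rows, by Ensembl gene ID) in the 10 libraries (columns, over-conditioned left of the white line, normal-conditioned right of it), coloured by log10(CPM + 1). A white x marks 2 counts or fewer. The marks spread over all 10 libraries and both conditions, from 2 profiles in over-conditioned replicate 3 to 10 in normal-conditioned replicate 3.

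The number of libraries that lacked an ID varied widely. Of the members, 10 were absent in 1 library, 6 in 2, 2 in 3, 4 in 4, and 2 in 6 or more. In 3 members no value lay between absent and 10 CPM, so that every library was either on or off.

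A pair of profiles were on in very few livers. ENSBTAG00000021565 had 82 counts (13.1 CPM) in the over-conditioned replicate 3, 106 counts (18.7 CPM) in the normal-conditioned replicate 5 and 0 in the other 8 libraries. The 2 livers that had it were 1 from each condition. ENSBTAG00000002900 stood at 14.3 and 42.4 CPM in over-conditioned replicates 1 and 3 and at 2.42 CPM in the normal-conditioned replicate 2, and had 0 counts in the other 7. Its highest library was at least 55.0-fold above the floor of its zero libraries. Both IDs were therefore on in over-conditioned replicate 3.

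In 3 sets, 2 IDs had exactly the same counts in all 10 libraries, so the 24 IDs are 21 distinct profiles. The sets are ENSBTAG00000048483 with ENSBTAG00000053689, ENSBTAG00000049206 with ENSBTAG00000050100, and ENSBTAG00000047947 with ENSBTAG00000050180. Over all IDs there were 7 such sets, 14 IDs, at a total count of 100 or more, so the on-off members supply 3 of the 7. Reads that fit near-identical copies, or 1 locus listed under 2 IDs, cannot be told apart from these counts. Each set is described below as 1 profile, while counts of members include both of its IDs unless stated.

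ENSBTAG00000048483 was the sharpest of the divided profiles. It stood at 29.5, 0, 15.6, 30.4 and 17.5 CPM in over-conditioned replicates 1 to 5, and at 0, 15.8, 0, 13.3 and 0 CPM in normal-conditioned replicates 1 to 5. The 6 livers that had it lay between 79 and 158 counts, and the other 4 had none. The lowest of the 6 was at least 17.2-fold above the floor.

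ENSBTAG00000049206 showed nearly the reverse. It stood at 0, 16.2, 0, 3.84 and 0 CPM in over-conditioned replicates 1 to 5, and at 31.0, 0, 26.3, 11.1 and 21.1 CPM in normal-conditioned replicates 1 to 5. It was off in 4 livers, and ENSBTAG00000048483 was on in each of those 4. Between them these profiles covered every liver: 8 had exactly 1 of the 2, and over-conditioned replicate 4 and normal-conditioned replicate 4 had both. No liver lacked both. Their log2(CPM + 1) values had a Pearson r of −0.84 over the 10 libraries, given as a description since the profiles were compared after their values were seen.

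A second opposite relation was graded. ENSBTAG00000055172 stood at 2.76, 12.3, 7.33, 20.4 and 2.08 CPM in over-conditioned replicates 1 to 5, and at 0, 6.79, 0, 1.17 and 0 CPM in normal-conditioned replicates 1 to 5. ENSBTAG00000047947 stood at 9.90, 0, 3.19, 0 and 3.12 CPM in the over-conditioned and at 6.93, 3.72, 18.1, 9.40 and 22.2 CPM in the normal-conditioned libraries, in the same order. The livers with the 2 highest levels of ENSBTAG00000055172, over-conditioned replicates 4 and 2, were those without a read of ENSBTAG00000047947. Their r of −0.89 was the lowest among the 210 pairs of distinct profiles, which share libraries and depth and are not independent. Other pairs came close, with r of −0.83 between ENSBTAG00000011758 and ENSBTAG00000019018 and −0.82 between ENSBTAG00000047914 and ENSBTAG00000055034.

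**Figure D3:**
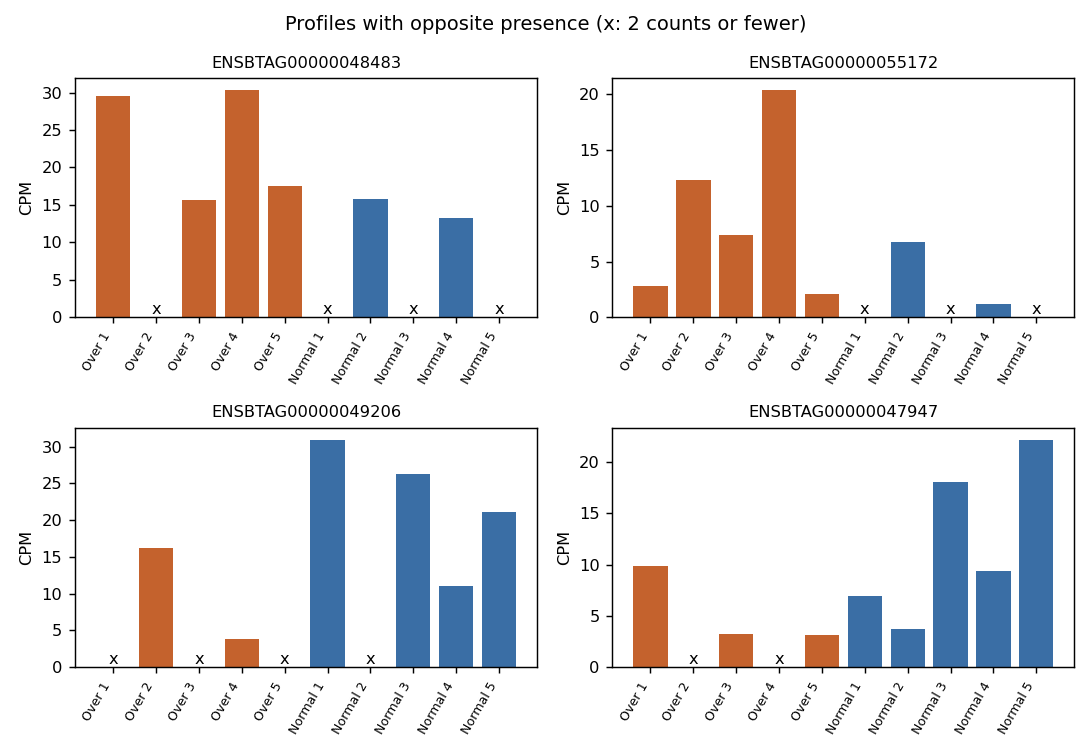
CPM (vertical axis) of 4 profiles in each library (horizontal axis, orange over-conditioned, blue normal-conditioned), with an x where the count was 2 or less. In the left column each library has a bar in the upper panel, the lower panel or, for over-conditioned replicate 4 and normal-conditioned replicate 4, both.

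Shared absence also occurred. Normal-conditioned replicates 3 and 5 lacked ENSBTAG00000053497, normal-conditioned replicates 1, 3 and 5 lacked ENSBTAG00000055172, and these 3 together with over-conditioned replicate 2 lacked ENSBTAG00000048483, so the sets of livers were nested. Over all 10 libraries, shared zeros included, r was 0.62 between ENSBTAG00000048483 and ENSBTAG00000053497, 0.54 between ENSBTAG00000048483 and ENSBTAG00000055172, and 0.60 between ENSBTAG00000053497 and ENSBTAG00000055172. Over the 6, 6 and 7 livers in which both were on it was 0.21, 0.48 and 0.07. These values leave out the livers where both were off and also those where only 1 was. Over-conditioned replicate 2, for example, had 0 CPM of ENSBTAG00000048483 and 12.3 CPM of ENSBTAG00000055172. How much of the likeness came from shared absence therefore cannot be read from these values. Other absences were nested too, with lower r. The livers where ENSBTAG00000016398 or ENSBTAG00000019554 was absent all lacked ENSBTAG00000033109 as well, and r with it was 0.20 and 0.19. Apart from the identical rows, no 2 profiles that were absent in 2 or more livers were absent in the same ones. In 3 pairs the profiles shared a single absent liver: ENSBTAG00000019018 with ENSBTAG00000031792, ENSBTAG00000011758 with ENSBTAG00000030629, and ENSBTAG00000000106 with ENSBTAG00000021050. Over all 210 pairs the median r was 0.01 and the highest 0.76, so most profiles did not move together.

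ENSBTAG00000053497 ran from 2.91 to 12.02 CPM across the 8 livers that had it. It stood at 6.22, 6.42, 10.7, 10.4 and 12.02 CPM in over-conditioned replicates 1 to 5. In normal-conditioned replicates 1 to 5 it stood at 6.47, 2.91, 0, 6.21 and 0 CPM. The off livers were both normal-conditioned. ENSBTAG00000033109 was off in both conditions, at 0, 6.42, 10.2, 16.5 and 13.5 CPM in over-conditioned and 13.4, 23.8, 0, 0 and 11.4 CPM in normal-conditioned replicates 1 to 5.

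A further 4 members with zeros were expressed in 9 of 10 livers and missing from 1. ENSBTAG00000019018 was the most abundant member, at 82.5, 88.4, 183, 129 and 64.1 CPM in over-conditioned replicates 1 to 5 and 0, 45.9, 128, 171 and 2.11 CPM in normal-conditioned replicates 1 to 5. Normal-conditioned replicate 1 had 0 counts of 6491675, and the highest library was at least 397-fold above its floor. Normal-conditioned replicate 5, with 12 counts, was also far below the other 8. ENSBTAG00000046759 was missing from normal-conditioned replicate 4 alone, and its other 9 values ran from 7.75 to 34.5 CPM. ENSBTAG00000052700 was missing from over-conditioned replicate 3 and ran from 2.11 to 23.7 CPM elsewhere. ENSBTAG00000021050 stood at 26.3, 8.99, 6.37, 2.50 and 9.35 CPM in over-conditioned and at 2.00, 0, 1.85, 10.6 and 2.29 CPM in normal-conditioned replicates 1 to 5, and was missing from normal-conditioned replicate 2.

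The hole of ENSBTAG00000046759 in normal-conditioned replicate 4 was shared by abundant IDs that are not members. ENSBTAG00000019588, one of the IDs the rule leaves out, had 0 counts there and 11.3 to 266 CPM in the other 9 libraries. ENSBTAG00000037605 had 3 counts there (0.504 CPM) and 20.9 to 211 CPM elsewhere. These were the 2 IDs whose log2(CPM + 1) was most like that of ENSBTAG00000046759 among 9139 others searched, with r of 0.93 and 0.91. Without normal-conditioned replicate 4 the r fell to 0.71 and 0.59, so much of the likeness rests on that 1 library.

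The same search was run for each of the 21 profiles, and its result is given here for the 3 members with the highest median level in the libraries where they reached 10 CPM. ENSBTAG00000019018 was most like ENSBTAG00000020406 (r = 0.94), whose lowest values, 6.32 and 5.11 CPM, fell in the same 2 livers, normal-conditioned replicates 1 and 5, against 16.2 to 28.1 CPM in the other 8. The next were ENSBTAG00000007739 (r = 0.93) and ENSBTAG00000020900 (r = 0.91). For ENSBTAG00000002900 the nearest were ENSBTAG00000043562, ENSBTAG00000010462 and ENSBTAG00000008789, with r of 0.87, 0.84 and 0.84. For ENSBTAG00000030629 they were ENSBTAG00000005009, ENSBTAG00000013410 and ENSBTAG00000015022, with r of 0.93, 0.89 and 0.88. With 9139 IDs and 10 libraries, the nearest ID had an r of 0.87 or more for each of the 21 profiles, and nothing is drawn from them.

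The 9 members without a zero had reads in every library, and they ranged from nearly divided to graded. ENSBTAG00000016398 came nearest to a division among them, at 0.230, 11.0, 11.5, 13.3 and 0.594 CPM in over-conditioned replicates 1 to 5 and 9.86, 0.969, 0.410, 12.1 and 0.881 CPM in normal-conditioned replicates 1 to 5. Of its livers 5 lay at 9.86 CPM or more and the other 5 at 0.969 CPM or less, in both conditions. ENSBTAG00000001582 stood at 35.9, 0.771, 6.53, 1.35 and 32.9 CPM in over-conditioned and at 0.924, 0.323, 0.205, 12.9 and 12.7 CPM in normal-conditioned replicates 1 to 5. It was high in 2 livers of each condition. ENSBTAG00000030629 stood at 2.53, 0.514, 1.75, 28.2 and 1.34 CPM in over-conditioned and at 0.924, 2.59, 1.23, 61.8 and 24.3 CPM in normal-conditioned replicates 1 to 5. It was high in 3 livers and lay at 2.59 CPM or less in the other 7.

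ENSBTAG00000000106 and ENSBTAG00000031792 had values throughout their range. ENSBTAG00000000106 stood at 0.691, 1.03, 6.53, 2.69 and 26.1 CPM in over-conditioned and at 14.5, 0.162, 9.23, 0.839 and 2.64 CPM in normal-conditioned replicates 1 to 5. ENSBTAG00000031792, which entered at the edge of the rule, stood at 1.38, 4.11, 4.62, 12.1 and 8.16 CPM in over-conditioned and at 0.154, 7.43, 10.1, 3.86 and 4.58 CPM in normal-conditioned replicates 1 to 5. In both, the levels of the conditions overlapped. ENSBTAG00000047914 ran from 0.148 to 15.6 CPM.

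Every liver lacked some of the 24 IDs. The over-conditioned replicates 1 to 5 lacked 5, 8, 3, 4 and 5, and the normal-conditioned replicates 1 to 5 lacked 7, 6, 11, 5 and 5. Over-conditioned livers lacked 5.00 ± 1.87 IDs on average and normal-conditioned livers 6.80 ± 2.49 (SD, n = 5 per group), and the ranges overlapped. Counting identical rows once, the means were 3.80 ± 1.48 and 6.00 ± 2.35. Normal-conditioned replicate 3, which lacked most, had 4874244 counts, and over-conditioned replicate 2, which lacked 8, was the shallowest library with 3892292; 7 and 6 of their absent IDs were at exactly 0. The part of depth in these numbers was not tested.

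**Figure D4:**
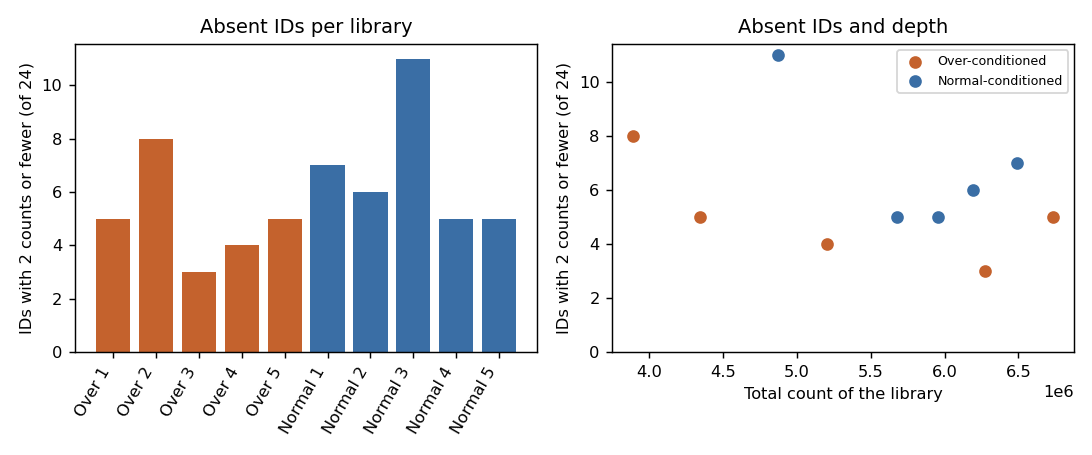
Left, number of the 24 IDs with 2 counts or fewer (vertical axis) in each library. Right, the same number against the library's total count; each point is 1 library, orange over-conditioned and blue normal-conditioned. Values run from 3 to 11 and the conditions overlap.

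Absence was then set against the condition labels. In 6 members absence was limited to over-conditioned livers, in 10 to normal-conditioned livers, and in 8 it occurred in both. By number of livers, 8 members were absent more often in over-conditioned, 14 more often in normal-conditioned and 2 equally often. Both IDs of each identical set are counted here. A difference of 3 or more livers was possible for the 7 members absent in 3 to 7 livers, and 1 of them reached it: ENSBTAG00000055172, absent in 0 of 5 over-conditioned and 3 of 5 normal-conditioned livers. Of the others, 16 were absent in 1 or 2 livers and ENSBTAG00000021565 in 8, which leaves too little to show whether absence follows the condition. In 0 of 24 members were the CPM of the groups without overlap, beside 1.28% of all 9162 IDs tested, a share at which 24 IDs would hardly show any.

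Levels were compared between the conditions with edgeR's quasi-likelihood test over the whole table. Of the 24 members 22 passed the filter on low counts, and ENSBTAG00000002900 and ENSBTAG00000021565 did not. No member had an adjusted p under 0.05, beside 0% of the 9162 IDs tested. At an unadjusted p under 0.05 there were 10 of 22 members, 5 higher and 5 lower in over-conditioned livers. Among all IDs tested the share was 7.55%, with 4.16% higher and 3.39% lower. These 10 hold both IDs of 2 identical sets and are 8 profiles. The count depended on the test: DESeq2 gave 3 of 24 beside 4.85% of the 15973 IDs it was fitted to, and an exact two-sided permutation of log2(CPM + 1) over 252 regroupings gave 7 of 24 (5 higher, 2 lower) beside 6.09% of 9915 IDs, with 0 members under 0.05 after adjustment over all of them. The permutation was added after the edgeR values were seen, and its 7 members include the identical IDs ENSBTAG00000047947 and ENSBTAG00000050180. DESeq2 called 1 member after adjustment, ENSBTAG00000055034, beside 0.276% of the IDs to which it gave an adjusted p.

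ENSBTAG00000055034 had the smallest p of any member. It stood at 9.44, 3.60, 11.0, 1.92 and 16.6 CPM in over-conditioned replicates 1 to 5 and at 1.69, 0.808, 0.205, 2.18 and 0.528 CPM in normal-conditioned replicates 1 to 5. Of the over-conditioned livers 4 of 5 lay above every normal-conditioned one, and over-conditioned replicate 4 did not. The log2 fold was 2.93 (SE 0.598), with an edgeR adjusted p of 0.400 and a DESeq2 adjusted p of 0.00192. The exact two-sided permutation test gave p = 0.0159, and 0.699 once adjusted over 9915 IDs, where 0.00794 is the smallest that 5 against 5 libraries can give.

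ENSBTAG00000019554 was next among the higher members. It stood at 38.9, 3.08, 17.0, 17.3 and 12.3 CPM in over-conditioned and at 12.3, 0.808, 0.205, 0.168 and 0.528 CPM in normal-conditioned replicates 1 to 5. Normal-conditioned replicate 1 lay at the level of the over-conditioned livers and the other 4 below all of them. The log2 fold was 2.51 (SE 0.818, edgeR adjusted p = 0.529). Without normal-conditioned replicate 1 it was 5.21 with an edgeR adjusted p of 0.0227, a call that thus rests on leaving out that library. The most similar ID outside the members was ENSBTAG00000010738 (r = 0.93), at 1.94 to 37.1 CPM, with 27.3 CPM in normal-conditioned replicate 1 and 1.94 to 6.79 CPM in the other normal-conditioned livers.

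A pair of profiles had the smallest p among the members lower in over-conditioned livers. ENSBTAG00000011758 stood at 3.22, 0.257, 0.956, 1.92 and 3.27 CPM in over-conditioned and at 10.8, 2.75, 3.28, 2.52 and 12.9 CPM in normal-conditioned replicates 1 to 5. The high values were those of normal-conditioned replicates 1 and 5. Normal-conditioned replicate 3 lay barely above the highest over-conditioned liver, and normal-conditioned replicates 2 and 4 lay within the over-conditioned range. Its log2 fold was −1.73 (SE 0.557, edgeR adjusted p = 0.529). The profile of ENSBTAG00000047947 and ENSBTAG00000050180, whose values are given above, had a log2 fold of −1.91 (SE 0.697, edgeR adjusted p = 0.581).

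The divided profiles had large folds with wide errors. ENSBTAG00000049206 had a log2 fold of −2.38 (SE 1.03, edgeR adjusted p = 0.642) and ENSBTAG00000048483 one of 1.58 (SE 0.969, edgeR adjusted p = 0.751). ENSBTAG00000055172 had one of 2.30 (SE 0.881), with an edgeR adjusted p of 0.617. ENSBTAG00000021050 and ENSBTAG00000053497, the remaining profiles at an unadjusted p under 0.05, had log2 folds of 1.62 and 1.48 (edgeR adjusted p = 0.639 for each). Single libraries moved these folds: without over-conditioned replicate 2 that of ENSBTAG00000049206 was −4.33, without normal-conditioned replicate 2 that of ENSBTAG00000055172 was 4.71, and that of ENSBTAG00000021050 was 1.03 without over-conditioned replicate 1 and 2.73 without normal-conditioned replicate 4. Over the 22 members tested 14 were higher and 8 lower in over-conditioned livers, with a median log2 fold of 0.51, beside 51.7% higher and a median of 0.01 among all 9162 IDs. In the labels' library names the over-conditioned livers carry the low running numbers, with 1 exception, so condition and that order cannot be told apart.

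**Figure D5:**
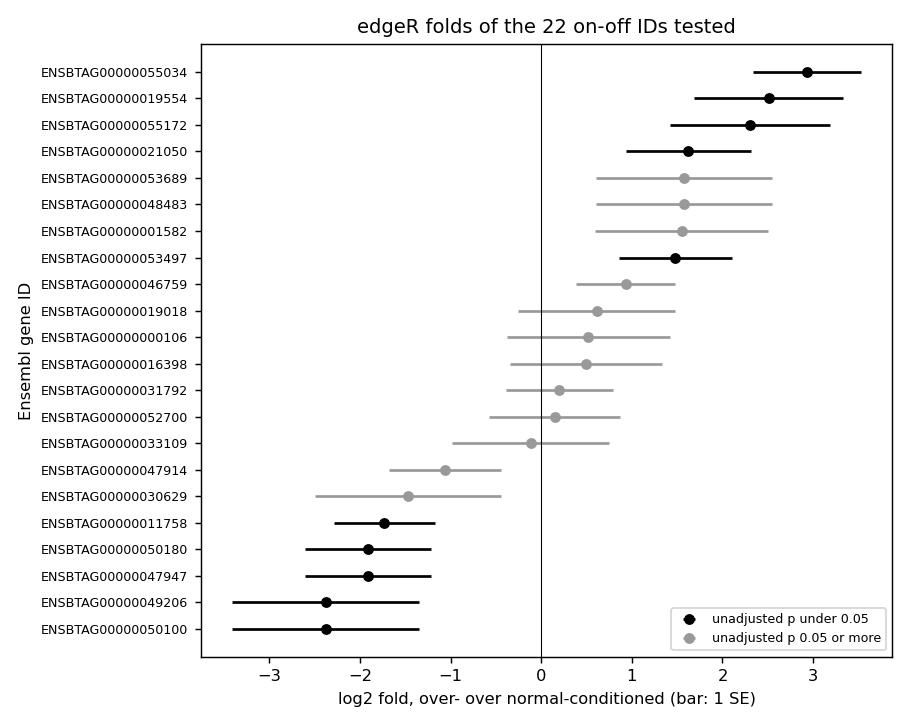
Log2 fold of over- over normal-conditioned livers (horizontal axis, bars 1 SE) for the 22 IDs tested with edgeR (vertical axis). Black points had an unadjusted p under 0.05, grey points did not, and no point had an adjusted p under 0.05. Folds run from −2.38 to 2.93.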

How the data were processed

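Liver RNA was read by QuantSeq 3' mRNA sequencing as single reads of 75 bases, per the labels' protocols. Tools listed without a role in the submitters' processing notes are cutadapt 1.18, STAR 2.6.0c and RSEM 1.3.1, with the builds ARS-UCD1.2 and bosTau9. The deposited values are raw counts by Ensembl ID, all whole numbers and not normalized; the assignment of reads fitting several genes is not described. CPM here is the count per 1000000 of the library total. Groups come from the sample titles.

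Members and lists were chosen with earlier results of these data known. Counts were filtered with filterByExpr (minimum count 10, minimum total 15), scaled by TMM and tested with edgeR 4.0.16 in R 4.3.3, with Benjamini-Hochberg adjustment over all IDs tested; DESeq2 1.42.0 was an alternative. Standard errors come from the fold and the F statistic. The tests were tried on simulated data. Correlations use log2(CPM + 1). Values per library are given for the 10 members most abundant where present, those whose absence differed by 3 or more livers between groups, the 2 smallest p in each direction, identical or closely correlated profiles and the members at the thresholds; the opposite and nested profiles, ENSBTAG00000016398, ENSBTAG00000033109 and the IDs outside the members with per-library values were picked after their values were seen. The gene family and marker lists needed symbols and were not used.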

Additional observations from a re-analysis of the deposited data

Results flagged for a closer look

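In each group of 5 libraries, the CPM of each of the 21 profiles and 3 per-library numbers of members (absent, at 0, and at 10 CPM or more) were searched for a library far from the rest of its group, 48 groups in all. Chance alone gives about 1 in 20 for normally distributed values, which CPM bounded at 0 is not. A group with reads in a single library is always flagged. IDs chosen for being off in some livers and on in others are prone to such gaps. There were 11, all on the high side and none among the per-library numbers. In the over-conditioned group they were ENSBTAG00000000106 with 26.1 CPM in replicate 5, ENSBTAG00000021050 with 26.3 CPM and ENSBTAG00000046759 with 34.5 CPM in replicate 1, ENSBTAG00000021565 with 13.1 CPM in replicate 3, ENSBTAG00000030629 with 28.2 CPM in replicate 4 and ENSBTAG00000049206 with 16.2 CPM in replicate 2. In the normal-conditioned group they were ENSBTAG00000002900 with 2.42 CPM and ENSBTAG00000055172 with 6.79 CPM in replicate 2, ENSBTAG00000019554 with 12.3 CPM in replicate 1, ENSBTAG00000021050 with 10.6 CPM in replicate 4 and ENSBTAG00000021565 with 18.7 CPM in replicate 5.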

How the results depend on the processing

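The number of members, 24, moved with the thresholds: 15 with absence at a count of 0, 27 at 5 or less, 56 with presence at 5 CPM, 7 at 20 CPM, 24 with TMM-scaled CPM and 20 to 22 without single libraries. Members sharing their set of absent livers with another, 12, were 6 with absence at 0, 38 with presence at 5 CPM, 4 at 20 CPM, 6 with identical rows counted once and 8 to 14 without single libraries. Members with every library on or off, 3, were 5 with presence at 5 CPM, 0 at 20 CPM and 2 to 5 without single libraries. Members whose absence differed by 3 or more livers, 1, were 3 with absence at 5 or less, 3 with presence at 5 CPM and 0 at 20 CPM. Without single libraries they were 0 to 3. The count was 0 without over-conditioned replicate 4 or normal-conditioned replicate 1, 3 or 5. It was 2 without over-conditioned replicate 2, the identical IDs ENSBTAG00000048483 and ENSBTAG00000053689, both absent more often in normal-conditioned livers. In that run ENSBTAG00000055172 reached 10 CPM in too few libraries to be a member. Without normal-conditioned replicate 2 it was 3, of which 1 was absent more often in normal-conditioned livers. The other 2, the identical IDs ENSBTAG00000049206 and ENSBTAG00000050100, were absent more often in over-conditioned livers. The difference in mean absent IDs per library, −1.80 (over- minus normal-conditioned), ran from −3.05 to −0.75 without single libraries and stayed negative under each alternative run. It was −1 with absence at a count of 0, −2.2 at 5 or less, −3.4 with presence at 5 CPM and −0.4 at 20 CPM.

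DESeq2 called 21 IDs and 1 member where edgeR called 0, and had 3 members at an unadjusted p under 0.05 (4.85% of all IDs) where edgeR had 10 (7.55%). Without single libraries edgeR called 0 to 1 IDs and 0 to 1 members and had 7 to 12 members at an unadjusted p under 0.05 (5.59% to 9.15% of all IDs); the 1 call, ENSBTAG00000019554, came without normal-conditioned replicate 1. The cause of these differences was not tested. With the replicate block edgeR called 0 IDs and 10 members had an unadjusted p under 0.05 (5.48% of all IDs). Same-numbered libraries were not alike, with correlations of −0.218 to −0.00016 and 0 of 10 libraries closest to their own number. These values cannot exclude a pairing. The folds of the 10 members at an unadjusted p under 0.05 kept their direction in 150 of 150 fits, which reuse the same libraries. Depth limits every zero to the floor of 3 counts.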
